A study of Drosophila melanogaster with 12 samples.

Results

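Ubx-bound regions close to the ends of protein-coding genes were examined in haltere imaginal discs of Drosophila melanogaster. The starting set was the deposited consensus list of 2171 haltere regions. After 28 regions outside the arms 2L, 2R, 3L, 3R, 4 and X and 116 regions in the 2L stretch of 111 tandem histone genes had been left out, 2027 regions remained. A region was kept when its midpoint lay within 1000 bp of either extremity of a protein-coding gene in the Release 6 gene table, which gave 316 of the 2027 regions (15.6%; 95% Wilson interval 14.1 to 17.2%). These are called near-end regions here. The gene table gives the extent of each gene without its strand, so the start and the end of transcription were not told apart, and no exon or UTR could be assigned. The other 1711 regions comprised 958 inside a gene and 753 outside genes, all over 1 kb from any gene end.

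In the study, 12 samples form 4 groups of 3 replicates: Ubx chromatin immunoprecipitation (ChIP) and input, each from haltere and from wing discs. All came from wild-type Canton S larvae at the wandering L3 stage. The polyclonal antibody was raised against the N-terminal part of Ubx, and the chromatin came from whole discs, so binding in few cells and weak binding in many cells cannot be told apart. The peak lists of the 3 haltere ChIP libraries were used. The wing discs and the inputs were not analysed here, and peak positions offer no marker genes against which the tissue could be checked. The lists held 2869, 2361 and 3859 peaks in replicates 1, 2 and 3. No file gives read counts, so the depth behind each peak is unknown.

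Ubx is the Hox transcription factor that makes the haltere, a small balancing organ, different from the wing. Hox proteins bind short AT-rich DNA motifs together with cofactors, and many of their known sites lie in enhancers far from the genes they control. The ends of genes hold promoters and the sequences just upstream of them, where the transcription machinery assembles, as well as the sequences where transcription stops.

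Most near-end regions lay in the sequence flanking a gene. The midpoint was outside all protein-coding genes in 185 of 316 regions (58.5%; 53.0 to 63.8%), inside the nearest gene in 95 (30.1%; 25.3 to 35.3%), and inside another, overlapping gene in 36. The gene end itself was covered by the region in 37 cases (11.7%; 8.62 to 15.7%). The nearest end was the lower-coordinate end of the gene in 153 regions (48.4%; 43.0 to 53.9%). Without the strand, this split cannot show whether the start or the end of transcription was nearer. The median distance from the midpoint to the nearest end was 404.5 bp and the smallest was 2 bp. Ends of a single gene lay within 1000 bp in 258 regions, of 2 genes in 56 and of 3 genes in 2, so that for 58 regions the gene is ambiguous.

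**Figure D1:**
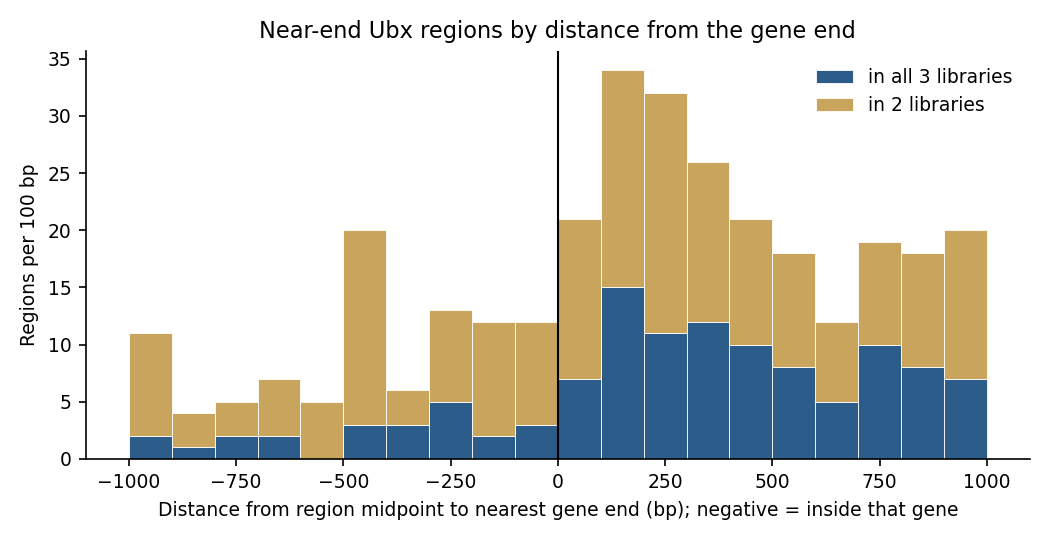
Near-end regions in bins of 100 bp by the distance in bp from the region midpoint to the nearest gene end, with negative distances inside that gene and positive ones outside it. Dark parts of the bars are regions in all 3 libraries and light parts are regions in 2 libraries. The bars are taller outside the gene than inside it, and the dark parts fill more of them there.

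The plot of distances shows more regions on the outer side of the gene end than on the inner side. How much sequence lies on each side within 1000 bp was not measured. By distance on either side, 33 regions lay within 100 bp, 71 between 100 and 250 bp, 93 between 250 and 500 bp, 54 between 500 and 750 bp and 65 between 750 and 1000 bp. The share called in all 3 libraries was 30.3% (17.4 to 47.3%) within 100 bp and 40.0% (29.0 to 52.1%) beyond 750 bp, and the intervals of all 5 distance classes overlapped. Regions lay closely on both sides of the 1000 bp boundary. Just inside it lay regions near Prx4 (992 bp; 2 libraries), Ankle2 (994 bp; 3 libraries) and CG11145 (997 bp; 3 libraries). Just outside lay those near CG14478 (1001 bp; 2 libraries), LanA (1004 bp; 3 libraries) and CG14505 (1009 bp; 3 libraries). In replicate 3 the authors' fold was 5.74, 7.96 and 7.57 for the regions inside the boundary and 5.54, 5.15 and 13.1 for those outside it.

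Near-end regions were narrower and more isolated than the other regions. Their median width was 178 bp (quartiles 140 and 262.5 bp, range 12 to 706 bp), against 214 bp (quartiles 155 and 324 bp) for the others. The median distance to the nearest neighbouring region, from midpoint to midpoint, was 8807.5 bp against 2333 bp. By the same measure another region lay within 2 kb of 88 near-end regions (27.8%; 23.2 to 33.0%) and of 803 other regions (46.9%; 44.6 to 49.3%). Where a region was in all 3 libraries, the 3 peak summits spread over a median of 58.5 bp near gene ends and 74 bp elsewhere. They fell within 50 bp of each other in 52 of 116 near-end regions (44.8%; 36.1 to 53.9%) and in 291 of 797 other regions (36.5%; 33.2 to 39.9%), with overlapping intervals.

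A near-end region was found for 344 of the 13922 protein-coding genes on the arms (2.47%), and for 127 genes (0.912%) the region was in all 3 libraries. Leaving out a library and asking for both remaining ones gave 264 genes without replicate 1, 205 without replicate 2 and 143 without replicate 3. The 344 genes had a median length of 4200 bp against 2163 bp over all protein-coding genes. Fewer of them carried only a CG number as a name, 115 of 344 (33.4%; 28.7 to 38.6%) against 6097 of 13922 (43.8%; 43.0 to 44.6%). A further Ubx region inside the gene and away from its ends was present in 53 of the 344 (15.4%; 11.98 to 19.6%), against 457 of all 13922 genes (3.28%; 2.999 to 3.59%), with the greater length of the near-end genes not taken into account.

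Among the near-end regions called in all 3 libraries, the 12 strongest lay beside CG4766, Art9, SoxN, mirr, CG3349, Scr, Sema5c, noc, CG43389, comm2, E(spl)mbeta-HLH and unk. Regions were ranked by the mean, over the libraries, of the percentile of the authors' fold enrichment within each library. The fold is the authors' value for each peak, a ratio over the local background at the summit, and it is used here only within a list. The first was on X from 5996942 to 5997351, 362 bp from CG4766, an uncharacterised gene, with folds of 12.1, 11.7 and 16.2 in replicates 1, 2 and 3. The next was on 3R from 13941722 to 13942339, 208 bp from Art9, a gene of the arginine methyltransferase family, with folds of 11.8, 10.2 and 13.6. All 3 libraries placed these regions in the top of their lists.

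Beside SoxN, which encodes a Sox-family transcription factor of the nervous system and epidermis, the region on 2L from 8825277 to 8825590 had folds of 10.2, 12.5 and 12.8. Beside mirr, an Iroquois homeodomain gene of dorsal and notum patterning, the region on 3L from 12692940 to 12693369 had folds of 8.87, 9.91 and 12.1. Beside Scr, the Hox gene of the labial and first thoracic segments, the region on 3R from 6849945 to 6850211 lay 97 bp from the gene and had folds of 7.27, 9.24 and 11.5. These folds were lowest in replicate 1 and highest in replicate 3.

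The region beside Sema5c, which encodes a transmembrane semaphorin, varied most within this group (3L, 12082460 to 12082774), with folds of 6.39, 10.3 and 13.5. That beside noc, a zinc-finger gene of appendage and eye patterning, had folds of 7.91, 6.64 and 13.04 (2L, 14490307 to 14490774). The region beside E(spl)mbeta-HLH, a bHLH repressor gene induced by Notch, had the opposite order, with 11.4 in replicate 1, 7.46 in replicate 2 and 7.09 in replicate 3 (3R, 26006096 to 26006567). The remaining 4 regions lay near CG3349, CG43389, comm2, a relative of the axon guidance gene commissureless, and unk, a zinc-finger gene that restrains neuronal differentiation. Their folds ran from 6.37 for comm2 in replicate 2 to 11.1 for CG3349 in replicates 2 and 3. The midpoint of every one of the 12 strongest regions lay outside the nearest gene, at 97 to 988 bp from its end, though the regions of Art9 and Scr reached over the gene end. Most of the set they came from lay outside too: of the 116 near-end regions in all 3 libraries, 23 had the midpoint inside the nearest gene. In each of the 12 the 3 summits fell within 41 bp.

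**Figure D2:**
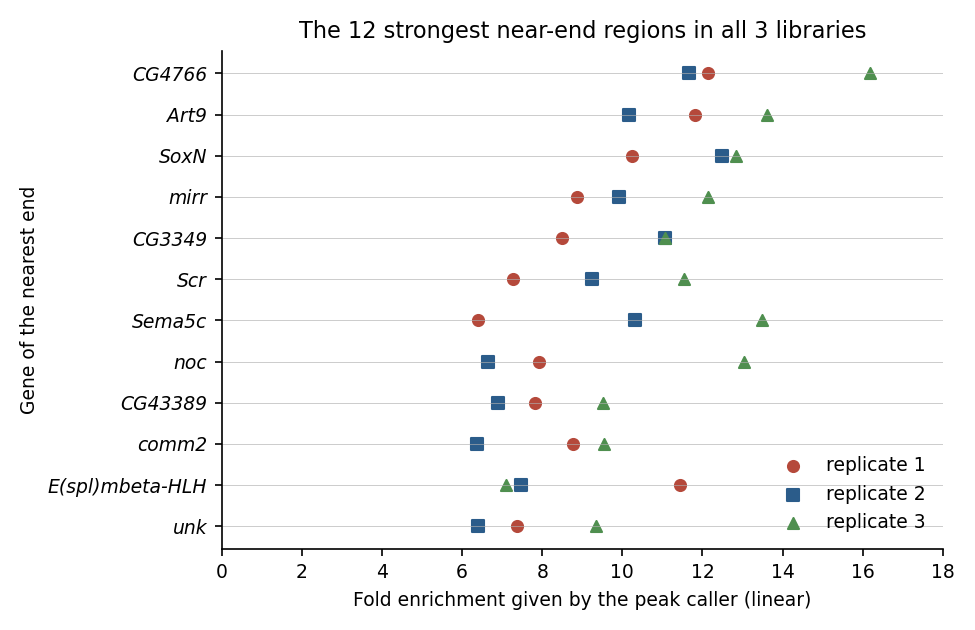
Fold enrichment given by the peak caller (linear axis) in each of the 3 haltere libraries for 12 near-end regions. They have the highest mean percentile of fold among those called in all 3 libraries and are named by the gene of the nearest end. Replicate 3 has the highest fold in most of them, and E(spl)mbeta-HLH, with 11.4 in replicate 1, is an exception.

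The plot of the strongest regions shows that every one was well above the lowest near-end fold, which was 2.80, 2.49 and 2.62 in replicates 1, 2 and 3. The median folds of the near-end regions were 4.60, 4.33 and 5.24.

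Genes of disc patterning and signalling were then read from 19 lists. Together these lists held 300 genes found in the gene table, and 47 of them (15.7%) had a near-end region, against 297 of 13622 genes on no list (2.18%) and the background of 2.47%. In all 3 libraries the count was 28 of the 300, against 127 of all 13922 genes (0.912%). Leaving out replicate 1, 2 or 3 gave a count of 39, 38 or 30, against 264, 205 or 143 over all genes. The lists were drawn up with earlier results of these data known, so the counts describe the listed genes and are no independent support for them. Some genes stand on more than 1 list. A listed gene was counted also where another protein-coding gene had an end within 1000 bp of the region. This was so, for example, for pb, eyg, Socs36E, stg, Krn and CycB. The region counted for CycB lay closer to blw, at 581 bp against 760 bp. Genes below that had regions in only 2 libraries were named after their values were seen.

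**Figure D3:**
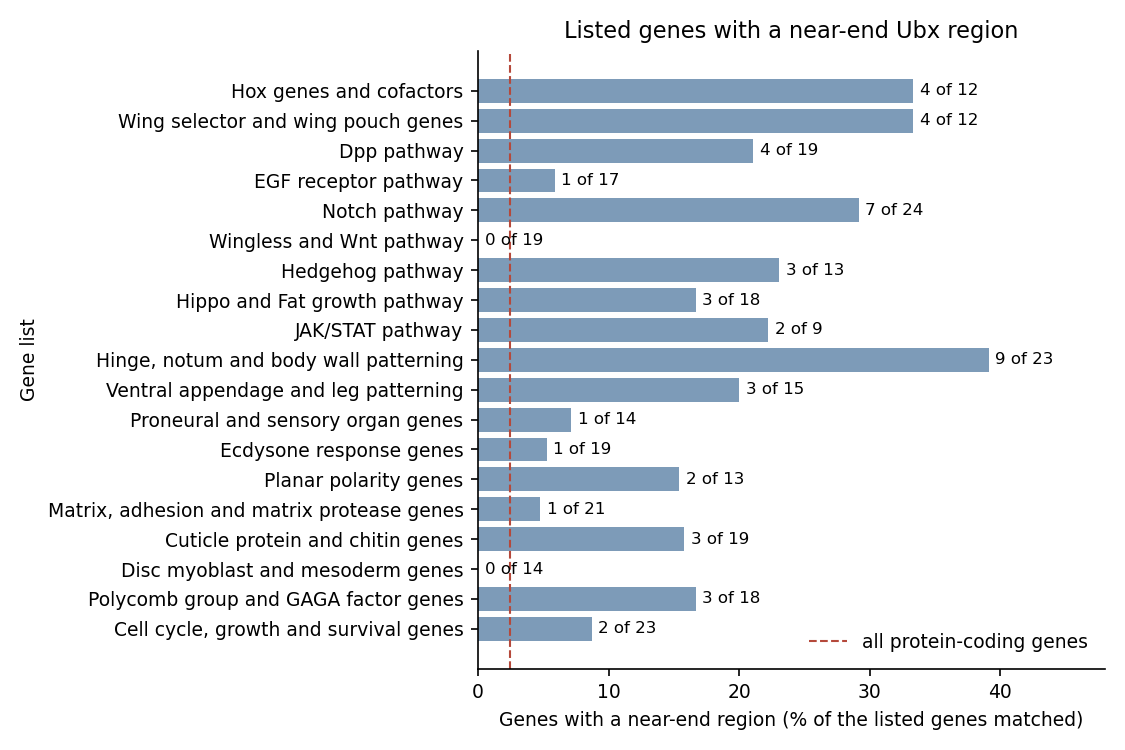
Percentage of the matched genes of each list that had a near-end region, with the counts printed beside the bars. The dashed line marks the 2.47% over all protein-coding genes; 9 of 23 hinge, notum and body wall genes, and none of the 19 Wingless and Wnt genes or the 14 myoblast genes, had such a region.

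The bars of the gene lists differ widely. Among genes that pattern the hinge, notum and body wall, 9 of 23 (39.1%) had a near-end region, 8 of them in all 3 libraries. Beside mirr, described above, stood ara, a second Iroquois gene, with folds of 5.38, 3.56 and 6.89 (3L, 12580194 to 12580393). The T-box genes H15 and mid, a neighbouring pair that patterns ventral appendage and body wall fates, had folds of 4.45, 3.79 and 8.79 (2L, 5403624 to 5403938) and of 4.61, 5.90 and 10.8 (2L, 5461141 to 5461438). In both T-box regions replicate 3 was the highest library by a wide margin.

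The zinc-finger gene bowl, of the odd-skipped family, had folds of 5.79, 6.41 and 7.30 (2L, 3771038 to 3771361), and its relative odd had a region in replicates 1 and 3, at 27 bp from the gene. The Pax gene eyg, which is needed for notum identity, had folds of 4.08, 4.66 and 6.66 (3L, 12468121 to 12468272). The region beside zfh2, a zinc-finger homeodomain gene of the hinge, was on chromosome 4 and highest in replicate 2, with folds of 4.09, 6.75 and 3.84 (501481 to 501764). Across this list the regions ranged from moderate to strong.

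Of the Hox genes and their cofactors, 4 of 12 (33.3%) had a near-end region, and 3 were Hox genes of the Antennapedia complex. Antp, the Hox gene of the second thoracic segment, had folds of 5.20, 4.72 and 5.17 (3R, 6999261 to 6999555), close to each other in the 3 libraries. Scr is given above, and pb, the Hox gene of the adult mouthparts, had a region in replicates 1 and 3 with folds of 4.46 and 6.46. The zinc-finger gene tio, a paralogue of the trunk identity gene teashirt, had folds of 6.30, 6.36 and 8.61 (2L, 22018840 to 22019217). The midpoints of all 4 regions lay outside the gene, at 97 to 180 bp from its end, and the regions of Scr and tio reached over that end.

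Among wing selector and wing pouch genes, 4 of 12 (33.3%) had a near-end region, each in all 3 libraries. The homeodomain gene Dll, which specifies distal appendage fates, had folds of 11.4, 6.62 and 6.13 (2R, 24814452 to 24814649). The gene bs, which encodes the serum response factor of intervein cells, had folds of 10.1, 6.51 and 6.94 (2R, 24342569 to 24342809). Replicate 1 was the highest library for these regions, unlike most of those above. The POU-domain gene nub had folds of 4.63, 4.61 and 5.55 (2L, 12586919 to 12587151). The gene fng, whose product adds sugars to the Notch receptor, had folds of 5.87, 5.59 and 6.39 (3L, 20949888 to 20950114).

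In the Notch pathway 7 of 24 genes (29.2%) had a near-end region, 5 of them in all 3 libraries. The ligand gene Ser had a region outside the gene with folds of 5.92, 6.38 and 7.10 (3R, 27194374 to 27194549) and a narrower one inside it, in replicates 1 and 3, which shares its peak in replicate 3. Among the Enhancer of split genes, which Notch switches on, E(spl)m2-BFM had folds of 5.87, 6.70 and 9.98 (3R, 26017480 to 26017789). The bHLH repressor gene E(spl)m3-HLH had 6.10, 7.51 and 5.21 (3R, 26020609 to 26021196). A further region, in replicates 2 and 3, lay near the ends of both E(spl)m3-HLH and its neighbour E(spl)m4-BFM. The Bearded-family gene Brd had a region in replicates 2 and 3 alone.

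For the Dpp pathway, the BMP signal that patterns the anterior-posterior axis of the discs, 4 of 19 genes (21.1%) had a near-end region. Leaving out replicate 1, 2 or 3 gave a count of 3, 2 or 1. Only salm, a zinc-finger target gene of the pathway, had one in all 3 libraries, with folds of 6.35, 5.08 and 8.64 (2L, 11445613 to 11446258). The repressor gene brk and the inhibitor gene Dad had regions in replicates 2 and 3, and sbb had 2 regions in replicates 1 and 3. In the Hedgehog pathway 3 of 13 genes (23.1%) had a near-end region, and 1 without replicate 2 or without replicate 3. The posterior selector gene en had folds of 4.11, 5.17 and 6.97 with the midpoint inside the gene at 48 bp from its end (2R, 11528004 to 11528320). Its paralogue inv had 2 regions, and ci, the transcription factor of the pathway, had 1, each in replicates 2 and 3 and with no fold above 4.24. The 2 regions of inv share their peak in replicate 3.

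Of the Hippo and Fat growth genes, 3 of 18 (16.7%) had a near-end region. The protocadherin gene ds had folds of 3.57, 3.67 and 3.80 (2L, 715672 to 715817), beside a further region in replicates 1 and 3. The gene fj, whose kinase product acts on Fat and Ds, had folds of 3.13, 4.39 and 5.10 (2R, 18236745 to 18236928), and ex had a region in replicates 1 and 3. The regions of ds and fj were among the weaker ones. Both genes also account for the 2 of 13 planar polarity genes (15.4%).

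In the JAK/STAT list 2 of 9 genes (22.2%) had a near-end region, zfh2 and, in replicates 2 and 3, the feedback inhibitor gene Socs36E. The count was 1 without replicate 2 or without replicate 3. In the ventral appendage list it was 3 of 15 (20%), namely Dll, the homeodomain gene al with folds of 4.31, 4.33 and 6.06 (2L, 377841 to 378041), and B-H2. The region beside B-H2 reached a fold of 10.5 in replicate 3 and 5.78 in replicate 2, but was not called in replicate 1. Of the Polycomb group and GAGA factor genes, 3 of 18 (16.7%) had one, namely ph-d, ph-p and, in replicates 1 and 3, Su(z)2. The genes ph-d and ph-p are a tandem duplication on X that encodes a subunit of Polycomb repressive complex 1. Their sequence identity was not measured here and the handling of multiply mapping reads is not given in the sources used here, so the assignment of reads between them is uncertain.

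The other lists had few near-end regions. Cell cycle, growth and survival genes had 2 of 23 (8.70%), the Cdc25 phosphatase gene stg with folds of 7.98, 7.94 and 5.85 (3R, 29255900 to 29256246) and, in replicates 2 and 3, CycB, and 1 without replicate 2 or without replicate 3. Proneural and sensory organ genes had 1 of 14 (7.14%), the bHLH repressor gene hry, with folds of 3.07, 3.65 and 6.02 (3L, 8675512 to 8675961). Matrix, adhesion and matrix protease genes had 1 of 21 (4.76%), the perlecan gene trol, and 2 without replicate 2 or without replicate 3. Ecdysone response genes had 1 of 19 (5.26%), br, and EGF receptor pathway genes had 1 of 17 (5.88%), the ligand gene Krn, both in replicates 1 and 3. These 2 genes had none without replicate 1 or without replicate 3. Of 19 listed cuticle protein and chitin genes 3 (15.8%), Cpr47Ee, Cpr51A and verm, had one, none of them in all 3 libraries, and 2, 1 and 0 had one without replicates 1, 2 and 3. The list is not complete. Cpr35B, which is not on it and was named after its values were seen, had a region in all 3 libraries. Its folds were 3.91, 6.55 and 9.12 (2L, 14425451 to 14425906). The unlisted Cpr49Ah, Cpr12A and Cht5 had regions in 2 libraries, though that of Cht5 lay closest to CG9312, at 143 bp. Unlisted cuticle and chitin genes without a region were not counted. None of the 19 Wingless and Wnt genes and none of the 14 disc myoblast and mesoderm genes had a near-end region, nor did any with a library left out.

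Few genes had several near-end regions. Of the 344 genes, 27 had more than 1, of which 24 had 2. CG43245 had 3, all called in 2 libraries. CG4766 had 4, the first being the strongest near-end region among those in all 3 libraries. Another of its regions was in all 3 libraries, with folds of 6.69, 7.69 and 8.07 (X, 6001271 to 6001694), and the remaining 2 were in replicates 2 and 3. CG46304 also had 4, of which 2 were in all 3 libraries. A broad peak of one library can cover 2 consensus regions, so neighbouring regions of a gene are not independent.

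Recovery over the 3 libraries was lower near gene ends than elsewhere. Of the 316 near-end regions, 116 (36.7%; 31.6 to 42.2%) were called in all 3 libraries, against 797 of the other 1711 (46.6%; 44.2 to 48.9%). The share was 44.6% (41.5 to 47.7%) for regions inside genes over 1 kb from an end and 49.1% (45.6 to 52.7%) for those outside genes. Replicate 1 covered 63.3% of the near-end regions, replicate 2 covered 77.5% and replicate 3 covered 95.9%, against 69.8, 80.0 and 96.8% of the other regions. The near-end regions in 2 libraries came from replicates 2 and 3 in 116 cases, from replicates 1 and 3 in 71 and from replicates 1 and 2 in 13. Their median widths were 166, 135 and 136 bp, against 279 bp for those in all 3 libraries. When the regions were rebuilt as stretches shared by 2 libraries only, the near-end ones numbered 133 without replicate 3, 191 without replicate 2 and 233 without replicate 1.

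Because the consensus list holds only stretches shared by at least 2 libraries, recovery was also measured from each library's own list with the same distance rule. Near-end peaks numbered 500, 358 and 719 in replicates 1, 2 and 3, beside 2349, 1850 and 2957 other peaks. A peak of both other libraries overlapped 24.2, 32.7 and 16.4% of the near-end peaks, against 33.9, 43.1 and 27.1% of the other peaks. The difference was -10.3 ± 0.487 percentage points (SD, n = 3 libraries) and was negative in 3 of 3. A two-sided exact permutation test that flips the sign of each library gave p = 0.25, the smallest that 3 libraries allow, and the Benjamini-Hochberg adjusted value over the 4 comparisons made this way was also 0.25. The libraries share sites, so the 3 differences are not independent. Peaks recovered by neither other library made up 58.6, 32.4 and 58.4% of the near-end peaks and 50.02, 26.4 and 45.1% of the others. The difference in recovery was -3.68 points when genes of every type counted, -5.71 points with only peaks of −log10 q of at least 5, and -6.15 points within quartiles of peak width.

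Near-end peaks had a slightly lower median fold rank than the other peaks in each full peak list. Among the consensus regions, which need a second library, the median fold near gene ends was also slightly lower. It was 4.60 against 4.71, 4.33 against 4.55 and 5.24 against 5.37 in replicates 1, 2 and 3. The mean percentile of a region, taken over the libraries that called it, had a median of 60.6 near gene ends and 60.4 elsewhere. In the full peak lists the median percentile of near-end peaks was 46.7, 48.9 and 46.4 in replicates 1, 2 and 3, against 51.4, 53.6 and 53.0 for the other peaks, a difference of -5.32 ± 1.04 (SD, n = 3). It was negative in 3 of 3 libraries (exact sign-flip permutation p = 0.25, adjusted 0.25). The median folds themselves were close, 4.22 against 4.41, 4.02 against 4.17 and 4.26 against 4.48. Near-end peaks were also narrower, with median widths of 167, 194.5 and 199 bp against 179, 214 and 231 bp. The percentile difference was -1.68 when genes of every type counted and -11.0 when the histone gene stretch was kept.

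The low recovery was found mainly in near-end sites inside genes, a split made after the data were seen. Among near-end regions, 85 of the 185 outside genes were in all 3 libraries (45.9%; 38.9 to 53.1%), against 31 of the 131 inside a gene (23.7%; 17.2 to 31.6%). The share was 24.2% (16.7 to 33.7%) inside the nearest gene and 22.2% (11.7 to 38.1%) inside another gene. From each library's own list, both other libraries overlapped 12.5, 20.5 and 7.82% of near-end peaks inside genes, and 39.9, 42.1 and 24.9% of near-end peaks outside them. The difference was -22.0 ± 5.14 percentage points (SD, n = 3) and was negative in 3 of 3 libraries (exact sign-flip permutation p = 0.25, adjusted 0.25).

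Away from gene ends the peaks inside and outside genes were more alike. There both other libraries overlapped 28.8, 42.8 and 25.4% of peaks inside genes and 42.8, 43.4 and 29.3% of peaks outside them. Inside genes, near-end peaks thus differed from those further in by -18.7 ± 3.17 points, and outside genes near-end peaks differed from those further out by -2.88 ± 1.53 points. The difference between these differences was -15.8 ± 4.41 points (SD, n = 3), with values of -13.4, -20.9 and -13.2 in the 3 libraries (exact sign-flip permutation p = 0.25, the smallest possible; this last test was added and stands outside the 4 adjusted comparisons). Fold moved with place as well: near-end peaks inside genes had median percentiles of 42.2, 41.0 and 38.9, and those outside had 50.5, 57.6 and 56.3. The part of fold in the recovery difference between inside and outside was not tested.

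**Figure D4:**
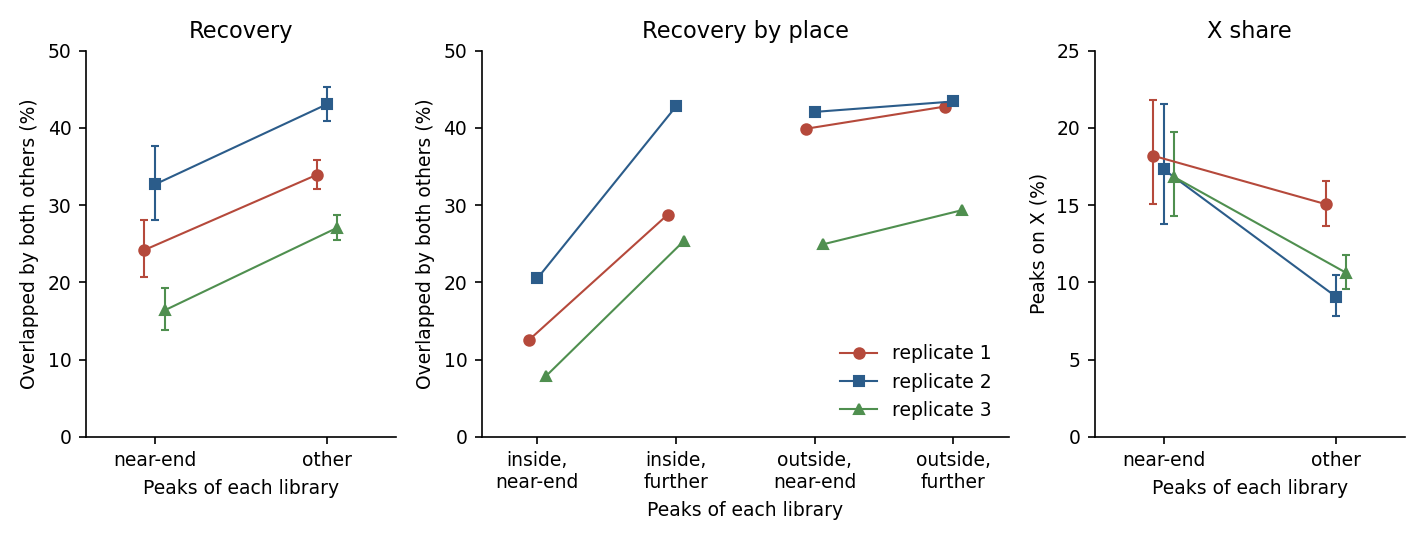
Per-library values for peaks in replicates 1, 2 and 3. Left, percentage of near-end and of other peaks overlapped by both other libraries, with 95% Wilson intervals; middle, the same percentage, without intervals, for peaks inside and outside genes near a gene end or further from it; right, percentage of peaks on X, with Wilson intervals. All 3 libraries have their lowest recovery in near-end peaks inside genes (12.5, 20.5 and 7.82%), and the lines outside genes are nearly flat.

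The plot of values by library shows the same order of near-end and other peaks in each of the 3 libraries. The Wilson intervals cover counting error over peaks only, and peaks of 1 library are not replicates.

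A larger share of near-end regions than of other regions lay on X. It was 56 of 316 (17.7%; 13.9 to 22.3%), against 177 of 1711 (10.3%; 8.99 to 11.9%). Of the regions over 1 kb from gene ends, 13.05% of those inside genes and 6.91% of those outside genes were on X. The near-end share was close to what X holds of the genes, 15.8%, and of the windows within 1000 bp of gene ends, 16.8%. Near-end regions numbered 10.2 per Mb of such windows on X and 9.51 per Mb on the autosomes. A near-end region was present for 59 of 2197 genes on X (2.69%; 2.09 to 3.45%) and for 285 of 11725 autosomal genes (2.43%; 2.17 to 2.73%). Of all regions on X, 24.0% (19.0 to 29.9%) were near-end, against 14.5% (12.9 to 16.2%) of those on the autosomes.

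**Figure D5:**
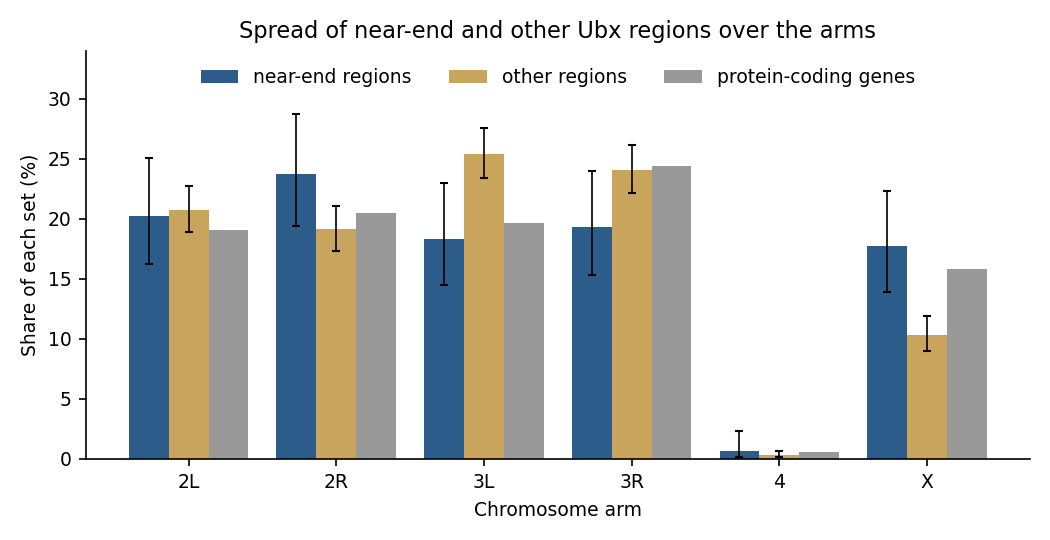
Percentage of near-end regions, of other regions and of protein-coding genes on each chromosome arm, with 95% Wilson intervals on the regions. On X the near-end share of 17.7% stands above the 10.3% of the other regions and next to the 15.8% of genes, and on 3L and 3R the near-end share is below that of the other regions.

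The plot by arm shows the near-end regions spread over the large autosomal arms, with 64 on 2L and 75 on 2R, then 58 in 3L, 61 in 3R and 2 in chromosome 4. Measured in each library, X held 18.2, 17.3 and 16.8% of near-end peaks and 15.1, 9.08 and 10.6% of other peaks. The difference was 5.86 ± 2.57 percentage points (SD, n = 3), positive in 3 of 3 libraries (exact sign-flip permutation p = 0.25, adjusted 0.25). It was smallest in replicate 1, where the X share of the other peaks was highest. The difference was 2.30 points when genes of every type counted and 3.52 points when the histone gene stretch was kept. Near-end regions inside a gene lay on X more often (22.9%; 16.5 to 30.8%) than those outside genes (14.1%; 9.77 to 19.8%), with overlapping intervals.

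Replicate 1 covered a smaller share of the near-end regions on X than of the sets compared with them. It covered 28 of 56 (50%; 37.3 to 62.7%). The share was 66.2% (60.2 to 71.6%) for the near-end regions on autosomes, with overlapping intervals. For the other regions on X it was 70.1% (62.9 to 76.3%). Replicate 2 covered 82.1% of the near-end regions on X and 76.5% of those on autosomes, and replicate 3 covered 98.2 and 95.4%. In all 3 libraries were 17 of 56 on X (30.4%; 19.9 to 43.3%) and 99 of 260 on autosomes (38.1%; 32.4 to 44.1%), with overlapping intervals. Without the X, the recovery difference between near-end and other peaks was -10.2 points. On X, both other libraries overlapped 19.8, 25.8 and 13.2% of near-end peaks in replicates 1, 2 and 3. The shares for the other peaks on X were 19.8, 43.5 and 22.6%, so replicate 1 had next to no difference there.

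Part of the near-end regions on X lay in arrays of neighbouring genes of nearly equal length. Of the 56, 3 were at Ste genes, an array of 11 testis-expressed Stellate genes of median length 724 bp at a spacing of 1269 bp. A further 4 were at CG46508, CG46516, CG46519 and CG46521, in an array of 19 genes of median length 876 bp at a spacing of 5002 bp. None of the 7 was called in replicate 1, and all 7 were called in replicates 2 and 3. Their folds were 3.37 to 3.57 and 3.51 to 4.40 at the Ste genes, and 3.10 to 4.91 and 3.98 to 5.20 in the other array. Sequence identity within the arrays was not measured here, so the placement of reads among the copies is uncertain. Without the arrays X held 15.9% (12.2 to 20.3%) of the near-end regions, and replicate 1 covered 28 of 49 of them (57.1%; 43.3 to 70.0%). That last interval overlapped those of the near-end regions on autosomes and of the other regions on X in replicate 1.

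The 17 near-end regions on X that were in all 3 libraries lay beside genes of varied function. The region beside CG4766 from 5996942 to 5997351 is described above. Beside ph-d the folds were 4.57, 6.55 and 8.36 (2123488 to 2123953), and inside ph-p they were 6.69, 5.58 and 8.003 (2137481 to 2137749). Beside trol, the perlecan gene, they were 4.95, 5.40 and 7.76 (2545439 to 2545675). Beside CG3842, at 122 bp, they were 8.67, 5.64 and 10.6 (6343710 to 6343997). Replicate 3 was again the highest in each of these 4 regions.

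Several of the X-linked genes have general cell functions. Inside IntS6, which encodes a subunit of the Integrator complex, the folds were 5.31, 5.40 and 8.26 (5746798 to 5747096). Beside Inx2, a gap junction gene, they were 4.28, 4.66 and 8.46 (6997859 to 6998047). Ankle2 had 2 regions in all 3 libraries, with folds of 7.18, 3.28 and 7.96 (17570717 to 17571004) and of 6.13, 5.70 and 6.96 (17571294 to 17571460). The developmental genes mab-21 and unc-4, the latter a homeodomain gene of neurons, stood at 493 and 286 bp. The fold at mab-21 varied from 3.36 in replicate 1 to 10.1 in replicate 3 (6013580 to 6013768). The remaining regions were near CG12206, CkIalpha, a casein kinase gene, Paics, a gene of purine synthesis, Pdcd4, CG15059 and, again, CG4766. Those near CG12206, CkIalpha, Paics, Pdcd4 and CG15059 had folds between 3.37 at CG12206 in replicate 2 and 6.79 at CG15059 in replicate 3.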

How the data were processed

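Per the submitters' processing notes, reads were handled with Trimmomatic 0.36, BWA and MACS2 on build BDGP6, taken here as Release 6; MACS2 options, control and treatment of multiply mapping reads are not given in the sources used here. The 3 replicates are independent biological ones, per the labels' series design text. The deposited lists give, per peak and library, the authors' fold enrichment (a linear ratio), score, and −log10 p-value and q-value, with no −log10 q below 2. The deposited consensus list gives positions only. All 2171 of its regions were identical to the stretches covered by at least 2 libraries. Positions are 1-based. Genes came from a RefSeq table of Release 6. No read count is given, so depth is unknown, and Wilson intervals cover counting error only.

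A region was in a library when at least 1 bp was covered. Library differences were tested with exact two-sided sign-flip permutations. Python 3.11.15, numpy 2.4.6, pandas 2.3.3, scipy 1.17.1 and matplotlib 3.10.9 were used, and scripts were tested on simulated data. Named are the 12 strongest regions among those in all 3 libraries, listed genes with a region and genes with at least 3. X regions in all 3 libraries and the regions next to the distance boundary are named too. The members and lists were chosen with earlier results of these data known. Alternatives changed the distance, reference point, gene types, histone stretch, q limit, overlap and libraries. Promoter motifs were not analysed here.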

Additional observations from a re-analysis of the deposited data

How the results depend on the processing

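The 4 library comparisons kept their direction under every alternative run. The recovery difference ranged from -12.6 to -3.68 points, the fold percentile difference from -11.0 to -1.68, the X difference from 2.30 to 7.22 points and the inside against outside difference from -24.7 to -15.3 points. With p at 0.25 at best (0.5 with 2 libraries), these ranges say nothing of stability under a threshold. The number and share of near-end regions were 197 and 9.72% at 500 bp, 540 and 26.6% at 2000 bp, and 499 and 24.6% with genes of every type; with the histone stretch kept the share was 20.2%. The number of genes was 210 at 500 bp and 604 at 2000 bp. The share in all 3 libraries was 42.5% with genes of every type and 28.5% with the histone stretch, and the X share 13.4 and 12.96%. These alternatives change which regions count by construction. Leaving out 1 library gave 133 to 233 regions, a share of 13.5 to 14.98%, 143 to 264 genes and 12.8 to 18.9% on X. The share in all 3 libraries has no value with 1 library left out. The alternatives for tandem arrays, quartiles of fold and of width, and no X, and all those for inside against outside, were chosen after seeing the data, not planned. No paired analysis was possible because replicate numbers pair samples only between groups and only haltere ChIP peak lists were analysed; each difference above is already taken within a library. Unknown depth limits every count of peaks.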
